A study of Mus musculus with 12 samples.

Results

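The AP-1 transcription factors are represented here by 10 genes, 4 of the Fos subfamily (Fos, Fosb, Fosl1 and Fosl2), 3 of the Jun subfamily (Jun, Junb and Jund) and 3 of the ATF and BATF subfamilies (Atf3, Batf and Batf3). They were taken by gene symbol from the count table of nuclear RNA, which held 46983 symbols, and each of the 10 had a row with counts in all 4 libraries. The libraries came from nuclei of cardiomyocytes of adult mice, pulled down on beads through PCM1, a protein at the nuclear surface of muscle cells. The 2 control libraries were from tamoxifen-treated Myh6-MCM mice, whose tamoxifen-inducible Cre is driven by the cardiac myosin promoter Myh6. The 2 YAP5SA libraries were from tamoxifen-treated mice of genotype Yap5SA+/tg; Myh6-MCM, which carry a transgene for YAP with inhibitory serines replaced by alanine, so that all 4 libraries share the Cre driver and the drug. The question was how this active YAP changes nuclear transcript levels.

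AP-1 is a dimer of basic leucine zipper (bZIP) proteins. A Fos protein pairs with a Jun protein, Jun proteins also pair with each other or with ATF and BATF proteins, and the dimers bind a short palindromic DNA element. Many AP-1 genes are immediate-early genes, transcribed within minutes of growth factor, stretch or stress signals through MAP kinases and serum response factor. In other cell systems YAP and TEAD often occupy enhancers together with AP-1.

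Of the 10 members, 9 passed the filter on low counts and Batf3 did not. In the test of YAP5SA against control (quasi-likelihood F test of edgeR, Benjamini-Hochberg adjustment over all 17715 genes tested), 1 member rose, Fos, and 0 fell. Over all genes tested, 4.12% were called, 3.12% higher and 0.999% lower. At an unadjusted p under 0.05 there were 1 higher and 1 lower member, Fos and Fosl1, where 12.7% of all genes were higher and 10.9% lower, so that 1 of 9 in each direction was near the background. With DESeq2 these 2 genes were called, 1 in each direction, where 8.53% of genes were called, 5.72% higher and 2.82% lower. The median log2 fold change of the 9 members was -0.25, beside -0.06 over all genes tested. Levels did not overlap between the groups for 5 of the 9 members (Fos and Junb above control, Fosb, Fosl1 and Jund below it), while 56.3% of all tested genes did not overlap (28.1% above control and 28.3% below).

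Which members were called depended on the control library used. Without control replicate 1, Fos was called higher and Fosl1, Jun and Atf3 lower, 1 and 3 members, in a fit that called 18.8% of all genes higher and 17.4% lower. Without control replicate 2, Fos, Fosl2, Jun and Atf3 were called higher and Fosb and Fosl1 lower, 4 and 2 members, where 19.7% and 18.6% of all genes were called. Fos higher and Fosl1 lower were the calls shared by these fits, and Jun and Atf3 had opposite signs in them. Without YAP5SA replicate 1 or replicate 2, 0 members were called in either direction, beside 0.362% of genes higher and 0.0266% lower in the former and 0.143% higher and 0% lower in the latter.

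The promoters of Fos, Jun and Atf3 are shown because Fos is the member that was called and Jun and Atf3 are the members with the largest excess of control replicate 2 over control replicate 1. Each line gives the 120 bases before the RefSeq start (build GRCm38.p6, the assembly also called mm10), on the strand of the gene. These are chr12:85473770-85473889 (plus strand) for Fos, chr4:95052223-95052342 (minus strand) for Jun and chr1:191183334-191183453 (minus strand) for Atf3. Capitals mark TGACG, the core of the cyclic AMP response element that CREB and ATF proteins bind (in Atf3 on the other strand), the AP-1-like element TGACATCA in Jun, and the TATA box letters TATAAA in Fos.
Fos: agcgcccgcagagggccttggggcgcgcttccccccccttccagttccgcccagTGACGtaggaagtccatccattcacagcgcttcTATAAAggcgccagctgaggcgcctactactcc
Jun: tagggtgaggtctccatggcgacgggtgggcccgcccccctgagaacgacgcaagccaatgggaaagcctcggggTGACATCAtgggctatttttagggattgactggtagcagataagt
Atf3: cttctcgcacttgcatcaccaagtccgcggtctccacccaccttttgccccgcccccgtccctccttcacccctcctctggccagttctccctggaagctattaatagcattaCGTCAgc

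A search of both strands covered 300 bases (250 before and 50 after the start) in the 9 members with a RefSeq promoter entry, all but Fosl1. The RefSeq start can differ from the gene bounds given here. The Atf3 bases shown lie inside its gene (191170296 to 191218039). For Jund the 120 bases before the RefSeq start end at 70697738, and the gene starts at 70698949. Other starts of these genes were not searched. TGACG was in the windows of 5 members (Fos, Fosb, Junb, Batf and Atf3) and in 20.8% of 32841 promoter windows of the same length. TGACATCA was in that of Jun and in 3.62% of all windows. TATAAA was in those of Fos and Junb (in Junb at bases 1 to 6 after the start) and in 13.6% of all. The AP-1 element TGANTCA (7.81% of all windows), the full palindrome TGACGTCA (1.79%), which contains TGACG, the TEAD letters GGAATG (14.7%) and the CArG box of serum response factor (1.63%) were in 0 of the 9 windows. Sites farther than 250 bases before the start lay outside the search, so 0 windows does not mean that a gene lacks the site. The letters were searched as text, and binding was not measured here.

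Fos encodes the prototype partner of Jun in AP-1 and lies on chromosome 12 (85473890 to 85477273, mm10), in 4 merged exons of 2352 bases. It had 421 and 403 counts in control and 2058 and 1665 counts in YAP5SA, which is 38.0 and 53.1 CPM (counts relative to the library total, scaled by TMM) against 138 and 126 CPM. Both YAP5SA libraries lay well above both control libraries, and the control libraries differed 1.40-fold, more than the median gene (1.28-fold). The control mean was 45.6 ± 10.7 CPM (SD, n = 2) and the YAP5SA mean 132 ± 8.63 CPM (SD, n = 2). Fos rose 2.91-fold, or 1.54 on the log2 scale (SE 0.217, edgeR adjusted p = 0.0337). The fold was 2.50 without control replicate 1 and 3.56 without control replicate 2. The call was lost without YAP5SA replicate 1 (log2 fold change 1.49, edgeR adjusted p = 0.173) and without YAP5SA replicate 2 (1.62, edgeR adjusted p = 0.251), fits in which 0.388% and 0.143% of all genes were called. Fos was called in 9 of 11 alternative fits. In those without a control library, the lone control library is assumed to vary like the YAP5SA pair, which lay closer together.

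**Figure D1:**
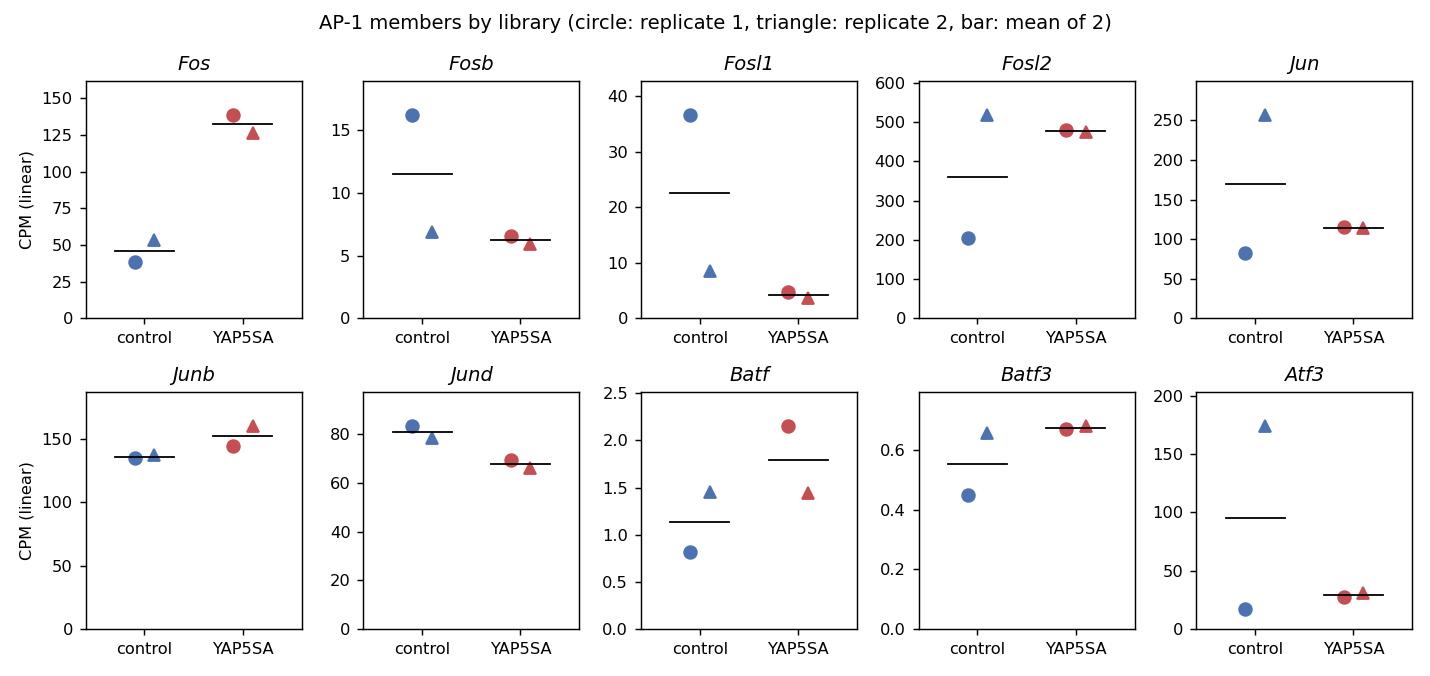
Level of each AP-1 member in CPM (linear axis from 0) in the 4 nuclear RNA libraries, with control in blue and YAP5SA in red, circles for replicate 1, triangles for replicate 2 and bars for the mean of 2 libraries. Fos is at 138 and 126 CPM in YAP5SA and at 38.0 and 53.1 CPM in control, while for Fosl1, Fosl2, Jun and Atf3 the control libraries lie far apart and the YAP5SA libraries lie together.

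Fosl1, which encodes FRA1, a Fos protein without the strong activation domain of c-Fos, was lower in YAP5SA without passing the test. It lies on chromosome 19 (5447547 to 5455946). Its counts were 404 and 64 in control and 70 and 47 in YAP5SA, or 36.5 and 8.44 against 4.70 and 3.56 CPM. Control replicate 1 stood apart from the other 3 libraries, though both YAP5SA libraries were lower than either control library. The log2 fold change was -2.45 (SE 0.693, edgeR adjusted p = 0.117), and DESeq2 called the decrease (adjusted p = 0.00309). Without control replicate 1 the log2 fold change was -1.01 (edgeR adjusted p = 0.00486) and without control replicate 2 it was -3.10 (edgeR adjusted p = 2.85e-48), both past the threshold in fits that called 36.2% and 38.3% of all genes. Exons of Fosl1 overlap those of Ccdc85b on the other strand, which measured 21.9, 9.76, 10.6 and 10.9 CPM in control replicates 1 and 2 and YAP5SA replicates 1 and 2. The strand setting of the counting is not given, so reads of overlapping genes cannot be told apart.

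Fosb, an immediate-early Fos gene on chromosome 7 (19302696 to 19310051), was likewise highest in control replicate 1. It measured 16.2 and 6.86 CPM in control and 6.52 and 5.91 CPM in YAP5SA. The second control library lay within 1 CPM of both YAP5SA libraries, and the log2 fold change of -0.90 did not pass (SE 0.437, edgeR adjusted p = 0.282). It was -0.13 without control replicate 1 and -1.34 without control replicate 2.

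Fosl2, which encodes FRA2, had the most counts of the Fos genes in every library. It lies on chromosome 5 (32135801 to 32157842), with 9680 bases of merged exons, the longest of the 10. It measured 206 and 517 CPM in control and 482 and 476 CPM in YAP5SA, so that control replicate 1 was low and the other 3 libraries lay close together. The log2 fold change was 0.41 (SE 0.437, edgeR adjusted p = 0.616). It was -0.10 without control replicate 1 and 1.25 without control replicate 2.

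The Jun genes, whose products can form AP-1 dimers with or without a Fos protein, split into a variable member and 2 steady ones. Jun is an intron-less gene on chromosome 4 (95049034 to 95052222), with 82.0 and 256 CPM in control and 115 and 114 CPM in YAP5SA. Both YAP5SA libraries lay between the control libraries, and the log2 fold change of -0.56 did not pass (SE 0.509, edgeR adjusted p = 0.547). Its direction depended on the control library kept: -1.15 without control replicate 1 and 0.52 without control replicate 2. Junos, an antisense transcript that overlaps the exon of Jun, measured 9.21 and 10.4 CPM in control and 5.04 and 2.65 CPM in YAP5SA.

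Junb and Jund lie on chromosome 8 (84974484 to 84978718 and 70698949 to 70700616). Junb, often induced together with Fos, measured 135 and 137 CPM in control and 145 and 160 CPM in YAP5SA, a log2 fold change of 0.17 (SE 0.162, edgeR adjusted p = 0.577). Jund, the Jun gene known for steady expression in resting cells, measured 83.3 and 78.6 CPM in control and 69.6 and 66.3 CPM in YAP5SA, a log2 fold change of -0.25 (SE 0.154, edgeR adjusted p = 0.375). Neither passed in any of the 11 alternative fits, where log2 fold changes ran from 0.11 to 0.26 for Junb and from -0.31 to -0.20 for Jund. Exons of Junb overlap those of Prdx2 on the other strand, which measured 59.8 to 67.9 CPM over the 4 libraries.

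Atf3 encodes a stress-induced bZIP factor that pairs with Jun proteins. It lies on chromosome 1 (191170296 to 191218039) and had 189 and 1318 counts in control and 411 and 403 in YAP5SA, or 17.1 and 174 against 27.6 and 30.5 CPM. Control replicate 2 was far above the other 3 libraries, and both YAP5SA libraries lay between the controls. The log2 fold change was -1.71 (SE 0.961, edgeR adjusted p = 0.340). It was -2.57 without control replicate 1 and 0.80 without control replicate 2, so that the sign followed the control library that was kept.

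Batf and Batf3 encode small bZIP proteins known chiefly from lymphocytes and dendritic cells. Batf, which starts 209 kb beyond Fos on chromosome 12 (85686669 to 85709087), had 9 and 11 counts in control and 32 and 19 in YAP5SA. At 0.813 and 1.45 CPM against 2.15 and 1.44 CPM the groups overlapped, and the log2 fold change of 0.70 did not pass (SE 0.498, edgeR adjusted p = 0.438). Batf3, 61.4 kb from Atf3 on chromosome 1 (191097847 to 191108945), had 5 counts in each control library and 10 and 9 in YAP5SA, or 0.452 and 0.659 against 0.672 and 0.682 CPM, and was not tested. A count of 3 is 0.202 to 0.396 CPM in these libraries, so both genes were measured near the limit of detection. Of 10 lymphocyte markers 2 passed the filter. The 10 summed to 10.5 and 5.54 CPM in control and 3.43 and 4.47 CPM in YAP5SA, and Cd79a made up 7.14 CPM of the sum in control replicate 1. The 8 dendritic cell markers summed to 69.4 and 71.7 CPM in control and to 87.8 and 88.1 CPM in YAP5SA. Of the 6 tested, 1 rose (Irf8, which macrophages express too), beside 3.12% of all genes tested. Most of the dendritic cell sum was Zbtb46 (35.4 to 44.8 CPM) and Irf8 (13.7 to 28.6 CPM). Of the 6 tested, 4 had a positive and 2 a negative log2 fold change. Among the latter, Clec9a measured 7.32 and 3.96 CPM in control and 2.42 and 2.12 CPM in YAP5SA (-1.32, edgeR adjusted p = 0.139).

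**Figure D2:**
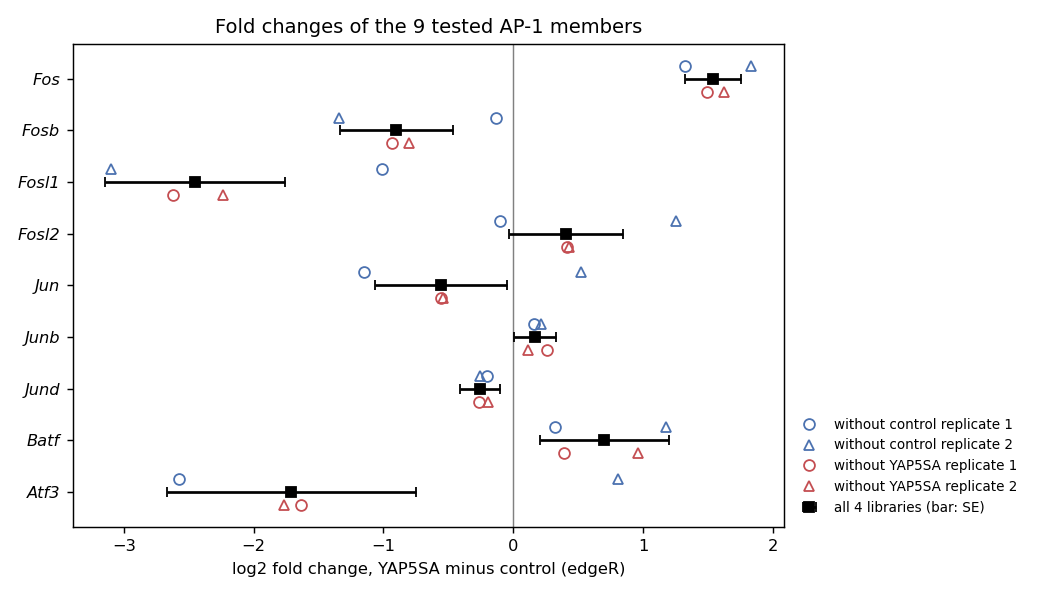
Log2 fold change of YAP5SA minus control for the 9 tested AP-1 members, with black squares and bars for the fit on all 4 libraries and its SE, and open symbols for fits that leave out 1 library. Leaving out a control library (blue) moves Jun from -1.15 to 0.52 and Atf3 from -2.57 to 0.80 across the line at 0, while Fos stays between 1.32 and 1.83.

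The control libraries were farther apart than the YAP5SA libraries, with a biological coefficient of variation of 34.3% against 8.44%. Among the 8 members with a mean of at least 5 CPM, 5 (Fosb, Fosl1, Fosl2, Jun and Atf3) differed at least 2-fold between the control libraries and 0 did between the YAP5SA libraries, where the largest ratio was 1.32, for Fosl1. Among 12162 tested genes with a mean of at least 5 CPM, 11.7% differed at least 2-fold between the control libraries and 0.288% between the YAP5SA libraries. Atf3, with a control ratio of 10.2, was among the 26 most divergent of these genes, which is 0.214% of them. For Fosl1, with a ratio of 4.33, the share of genes at least as far apart was 1.98%, for Jun (3.12) 3.97%, for Fosl2 (2.51) 6.60% and for Fosb (2.36) 7.83%.

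The members did not diverge in a common direction. Atf3, Jun and Fosl2 were higher in control replicate 2, and Fosl1 and Fosb in control replicate 1. Over all tested genes, 10.2% were at least 2-fold higher in control replicate 2 and 8.19% in control replicate 1. The 10 cardiomyocyte markers, all 10 detected, summed to 34884 CPM in control replicate 1 and 70504 CPM in control replicate 2, and to 25567 and 27166 CPM in YAP5SA. In edgeR 0 of 10 passed the threshold. At an unadjusted p under 0.05, 4 were lower, beside 10.9% of all genes. DESeq2 called 4 lower, beside 2.82% of all genes. All 10 had a negative log2 fold change (median -1.03), and 7 lay below control without overlap, beside 28.3% of all tested genes. The median was -1.31 without control replicate 1 and -0.30 without control replicate 2. Ttn, the titin gene, made up 19850 and 48026 CPM of the control sums, and the median log2 ratio of control replicate 2 over 1 was 0.58 for the 10 markers. The 13 macrophage and monocyte markers summed to 885 and 614 CPM in control and 1422 and 1712 CPM in YAP5SA. Of these, 5 of 13 passed the threshold upward, beside 3.12% of all genes tested. The 12 endothelial markers summed to 2364 and 1535 CPM in control and 1236 and 1159 CPM in YAP5SA. Of these, 2 passed the threshold downward, beside 0.999% of all genes tested. The 12 fibroblast markers ran from 6727 to 8816 CPM and the 8 smooth muscle and pericyte markers from 1324 to 1646 CPM. In each of these lists 1 gene was called higher, beside 3.12% of all genes tested. Of the fibroblast markers, 5 had a positive and 7 a negative log2 fold change (median -0.33). Of the smooth muscle and pericyte markers, 3 were positive and 5 negative (median -0.50). Acta2, the gene called there, measured 157 and 97.3 CPM in control and 710 and 915 CPM in YAP5SA. The part of these shifts in the AP-1 values was not tested, and fewer nuclei of a type cannot be told apart from less RNA per nucleus.

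**Figure D3:**
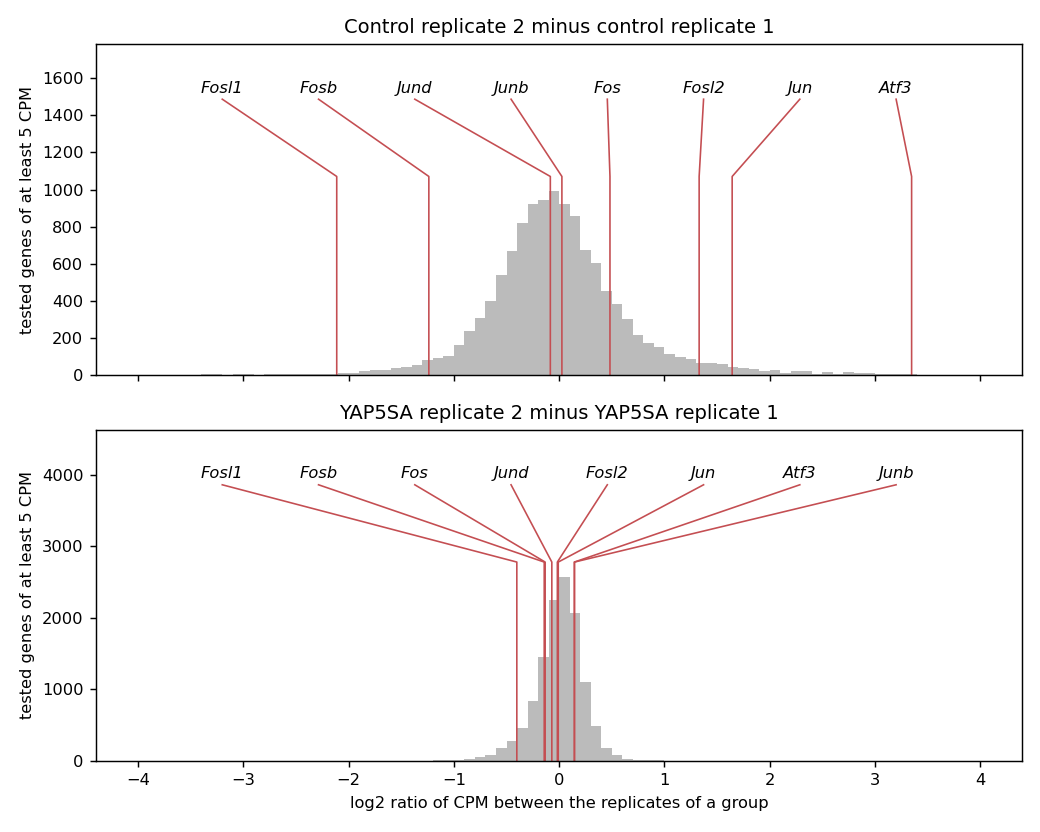
Log2 ratio of CPM between the replicates of a group for 12162 tested genes with a mean of at least 5 CPM (grey bars, number of genes) and for the 8 AP-1 members at that level (red lines), in control (top) and YAP5SA (bottom). Atf3, Jun and Fosl2 lie in the right tail and Fosl1 and Fosb in the left tail of the control pair, and all 8 members lie within the central peak or its edge in the YAP5SA pair.

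Levels were compared between members per kilobase of merged exons. In both YAP5SA libraries the order was Junb (62.9 and 69.6 CPM per kilobase), Fos (58.8 and 53.6), Fosl2 (49.7 and 49.1), Jund (41.7 and 39.7), Jun (36.0 and 35.8), Atf3 (12.8 and 14.2), Fosl1 (2.31 and 1.75), Batf (1.53 and 1.02), Fosb (1.04 and 0.946) and Batf3 (0.421 and 0.427). Of neighbours in that order, Batf and Fosb overlapped between libraries and the others did not. In control the order differed between the libraries: Junb and Jund led in replicate 1 (58.5 and 49.9 CPM per kilobase), and Atf3 and Jun in replicate 2 (80.7 and 80.3). Fos was the sixth of the 10 in each control library (16.2 and 22.6 CPM per kilobase) and the second in each YAP5SA library. The ranges of Junb, Jun, Jund, Atf3 and Fosl2 chained into each other in control, as did those of Fosl2, Fos and Fosl1. Summed over the 4 Fos genes the level per kilobase was 58.0 and 81.3 in control and 112 and 105 in YAP5SA, and over the 3 Jun genes it was 134 and 187 in control and 141 and 145 in YAP5SA.

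The genes with the most similar profile over the 4 libraries were named by the Euclidean distance of centred log2(CPM + 1) values among 12154 other tested genes with a mean of at least 5 CPM, a description with no test. For Atf3 they were the gene model Gm37258 (distance 0.293), Abra (0.299) and the gene model Gm37018 (0.352), beside a median distance of 2.60 over all genes. Abra measured 17.3 and 148 CPM in control and 31.5 and 28.8 CPM in YAP5SA. For Fosl2 the nearest were the gene model Gm37893 (0.0320), Large (0.117), a glycosyltransferase gene, and Tdp1 (0.135), a DNA repair gene, with a median of 1.20. For Junb, a nearly flat profile, they were Hmgn1, Zfp771 and Nfu1 (0.0180 to 0.0272), with a median of 0.528.

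Other immediate-early genes were also mixed. Of 30 listed, 28 were tested, 2 rose and 0 fell, beside 3.12% higher and 0.999% lower over all genes tested. The median log2 fold change was -0.01. At an unadjusted p under 0.05, 6 were higher and 5 lower, beside 12.7% and 10.9% of all genes. Ptgs2, the inducible cyclooxygenase gene, rose from 12.7 and 12.8 to 64.6 and 65.1 CPM (5.08-fold, edgeR adjusted p = 0.0112). Dusp1, which encodes a MAP kinase phosphatase, rose from 81.1 and 85.8 to 265 and 214 CPM (2.87-fold, edgeR adjusted p = 0.0301), close to the fold of Fos. The control libraries lay near each other for Ptgs2 and Dusp1. The lower genes with the smallest p were Nr4a1 and Nr4a2, orphan nuclear receptor genes, with log2 fold changes of -0.98 and -2.56 (edgeR adjusted p = 0.0545 and 0.152). For Nr4a2 the value was -0.82 without control replicate 1 and -3.28 without control replicate 2. Between the control libraries, 10.2% of all tested genes were at least 2-fold higher in replicate 2 and 8.19% in replicate 1. Of the 28 immediate-early genes, 7 were at least 2-fold higher in replicate 2 (Btg2, Nr4a3, Egr1, Egr2, Egr3, Cyr61 and Ctgf). Another 5 were so in replicate 1 (Klf4, Klf10, Nr4a2, Arc and Gadd45b). These genes were chosen after their values were seen. Without YAP5SA replicate 1 the number that rose was 1 (Ptgs2) and without YAP5SA replicate 2 it was 0, while it was 11 when either control library was left out, with 7 and 6 lower, in fits that called 36.2% and 38.3% of all genes.

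Among 28 other bZIP factors, such as ATF, CREB, MAF, NRF, BACH and C/EBP proteins, 27 were tested. With edgeR 0 passed, beside 4.12% of all genes tested. At an unadjusted p under 0.05, 4 were higher and 0 lower (12.7% and 10.9% of all genes), so that the share higher was near the background. DESeq2 called 1 higher and 0 lower, beside 5.72% and 2.82% of all genes. The median log2 fold change was -0.03. Cebpb, which encodes a C/EBP factor of inflammatory responses, measured 28.4 and 26.5 CPM in control and 54.9 and 44.3 CPM in YAP5SA (log2 fold change 0.85, edgeR adjusted p = 0.0698), and Maf had a log2 fold change of 0.72 (edgeR adjusted p = 0.152). Nfe2l1 and Cebpg, the lower genes with the smallest p, had log2 fold changes of -0.42 and -0.50 (edgeR adjusted p = 0.298 and 0.321). Without control replicate 1, 9 were called higher and 5 lower (18.8% and 17.4% of all genes), and without control replicate 2, 7 and 3 (19.7% and 18.6%).

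Genes upstream of AP-1 were 37 kinases and transcription factors, the latter being Srf and genes of the Elk, Mkl and Mef2 families. All 37 were tested, with a median log2 fold change of 0.00. Of them 2 rose and 1 fell, beside 3.12% higher and 0.999% lower over all genes tested. Both that rose encode kinases of the RSK and MSK family, which act downstream of MAP kinases, and both lost the call in the fit with a replicate block (edgeR adjusted p = 0.0609 for Rps6ka5 and 0.0673 for Rps6ka1). Rps6ka5 (MSK1) rose from 8.49 and 9.23 to 22.4 and 22.6 CPM (2.54-fold, edgeR adjusted p = 0.0354), and Rps6ka1 (RSK1) from 13.0 and 10.4 to 27.0 and 30.2 CPM (2.43-fold, edgeR adjusted p = 0.0417). Mapk12, which encodes a p38 kinase of muscle, fell from 34.7 and 30.5 to 13.7 and 11.7 CPM (2.56-fold, edgeR adjusted p = 0.0353). Mapk8, which encodes the Jun kinase JNK1, had a log2 fold change of -0.55 (edgeR adjusted p = 0.136). Without either YAP5SA library 0 of the 37 were called. Leaving out control replicate 1 gave 5 higher and 6 lower, and leaving out control replicate 2 gave 6 and 8. Of all genes, 18.8% and 17.4% were called in the former fit and 19.7% and 18.6% in the latter, so these counts were near the background.

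The last list held 34 genes with known AP-1 sites or joint regulation by YAP, TEAD and AP-1, all tested. On this list 5 rose and 0 fell, beside 3.12% higher and 0.999% lower over all genes tested. Amotl2, Anln, Ect2 and other genes were put on it with their rise in these libraries already known, so its counts and its median log2 fold change of 0.77 partly restate that choice and are given as a description. For the macrophage and monocyte markers, the median log2 fold change of YAP5SA minus control was 1.44. Of these markers, 12 of 13 lay above control without overlap, beside 28.1% of all tested genes. Their part in the values of the target list was not tested. Plau, which encodes urokinase and has a classic AP-1 enhancer, rose from 16.4 and 16.0 to 47.9 and 59.2 CPM (3.30-fold, edgeR adjusted p = 0.0276). Ccl2, which encodes a monocyte chemoattractant, rose from 18.6 and 30.6 to 91.9 and 84.1 CPM (3.59-fold, edgeR adjusted p = 0.0359). Amotl2, Anln and Ect2 rose 3.92-fold, 3.14-fold and 2.51-fold (edgeR adjusted p = 0.0250, 0.0314 and 0.0356), and Ect2 lost its call with a replicate block (edgeR adjusted p = 0.0562). The lower members with the smallest p did not pass: Timp1, a protease inhibitor gene, had a log2 fold change of -0.42 and Lif, a cytokine gene, -1.43 (edgeR adjusted p = 0.265 and 0.285). Lif was at 0.18 without control replicate 1 and -2.11 without control replicate 2. Mmp3, a classic AP-1 target chosen after its values were seen, measured 21.9 and 2.90 CPM in control and 4.30 and 4.39 CPM in YAP5SA. It was 1 of 5 listed genes at least 2-fold higher in control replicate 1, and 4 were so in control replicate 2. Over all tested genes these shares were 8.19% and 10.2%. Without either YAP5SA library 0 of the list passed. The median log2 fold change of the list was 0.84 without control replicate 1 and 0.78 without control replicate 2.

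**Figure D4:**
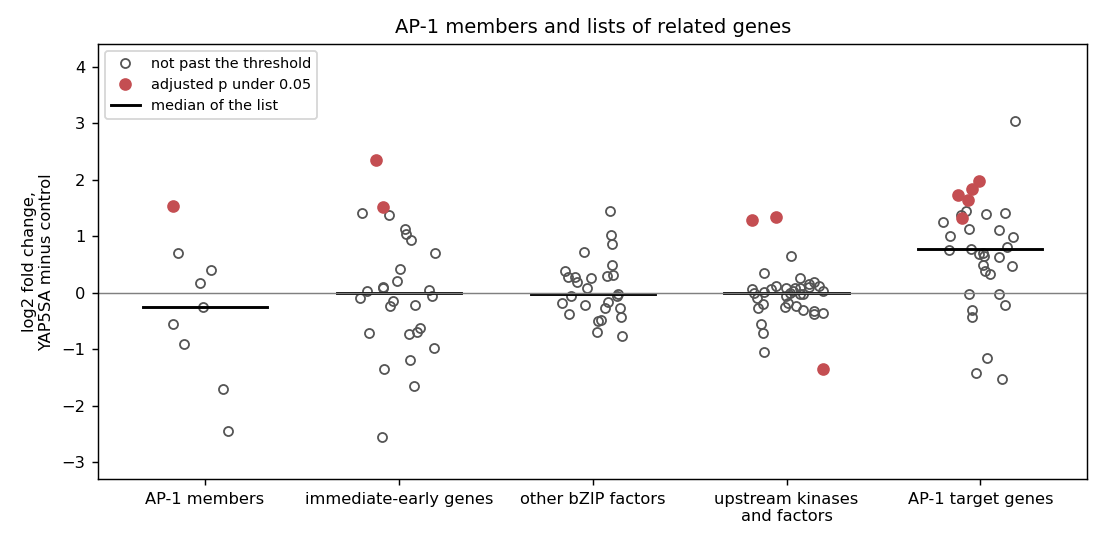
Log2 fold change of YAP5SA minus control for each tested gene of the AP-1 set and of 4 lists of related genes, with filled red points for an edgeR adjusted p under 0.05 and black bars for the median of each list; horizontal scatter is only for display. The medians are -0.25, -0.01, -0.03, 0.00 and 0.77 from left to right. The calls number 1, 2, 0, 3 and 5 of 9, 28, 27, 37 and 34 tested genes, beside 4.12% of all genes tested. The target list held genes whose rise was already known.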

How the data were processed

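Nuclear RNA was sequenced in 4 libraries, 2 per group. Per the labels' protocols, libraries were stranded and depleted of rRNA, and STAR mapped the reads to mm10. The authors deposited raw counts per gene symbol, and the sources used here do not give the counting program, strand setting, annotation or versions. Total counts ran from 7850661 to 15012122, and detection limits cover counting error only. ATAC-seq and 4C-seq samples were not analysed here. Replicates differed by more than sampling noise (chi-square per gene 54.5 in control and 13.7 in YAP5SA), and each counted as 1 sample.

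Genes were filtered with filterByExpr (minimum count 10), scaled by TMM and tested with edgeR's quasi-likelihood F test (edgeR 4.0.16, R 4.3.3), threshold 0.05 after Benjamini-Hochberg adjustment. Scripts were checked on simulated data for fold changes only, with the same spread in all libraries, unlike the groups here. Each SE was derived as log2 fold change over the root of F. Alternatives were library totals, DESeq2 size factors, DESeq2 1.42.0, limma-voom (limma 3.58.1), no filter, a stricter filter (50 counts in 2 libraries), a replicate block and leaving out each library. When a library is left out, the lone library of its group is assumed to vary like the other group. Whether replicates are separate animals is not in the labels, and p-values therefore reflect library-to-library spread alone, possibly technical.

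Coordinates and merged exon lengths are from GENCODE M21 (GRCm38), and promoters from RefSeq (GRCm38.p6). The members and lists were chosen with earlier results of these data known. Named genes were the 10 members, from each list the 2 smallest adjusted p in each direction and all genes past the threshold, and the 3 nearest profiles to the most abundant member of each subfamily. The promoter motifs TGACG, TGACATCA and TATAAA were added after the sequences were seen.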

Additional observations from a re-analysis of the deposited data

How the results depend on the processing

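The number of AP-1 members called higher ran from 0 to 4 and lower from 0 to 3 when single libraries were left out, and the number lower was 1 with DESeq2 and 2 with no filter on low counts. For immediate-early genes the leave-one-out ranges were 0 to 11 higher and 0 to 7 lower, with 5 and 3 by DESeq2 and 8 and 7 with no filter. For other bZIP factors they were 0 to 9 and 0 to 5, with 1 higher by DESeq2 and 3 higher and 1 lower with no filter. For upstream kinases and factors they were 0 to 6 and 0 to 8, with 2 lower with no filter. For target genes they were 0 to 24 and 0 to 4, with 8 higher by library totals, 14 by DESeq2, and 20 higher and 3 lower with no filter. Over the whole table, calls higher and lower were 1069 and 527 with DESeq2, 1727 and 1689 with no filter, and 27 to 3748 and 0 to 3554 without single libraries. The main fit called 553 higher and 177 lower of 17715 genes tested, and library totals 661 and 212 of the same number. DESeq2 tested 18702 genes, of which 5.72% were called higher and 2.82% lower, and the fit with no filter tested 30546. Shares for the fits without single libraries are given above. The target list held genes whose rise was already known, so its counts partly restate that choice. The cause of the shifts in calls between fits was not tested.

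With the replicate number as a replicate block, 321 genes were called higher and 112 lower, and 0 upstream kinases higher. Ect2, Rps6ka1 and Rps6ka5 lost their calls (edgeR adjusted p = 0.0562, 0.0673 and 0.0609), and Fos kept its call (edgeR adjusted p = 0.0417). Nothing in the labels says that the numbers mark a shared animal or day, and the differences of replicate 2 from replicate 1 correlated across genes by -0.0917 between the groups.

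Of 98 alternative fits of the 9 members, 84 kept direction and side of the threshold, 9 passed it newly with the same sign, 2 lost the call (Fos) and 3 changed sign, 2 of them past the threshold (Jun and Atf3 without control replicate 2). Those 3 were leave-one-out fits, with ranges of -0.10 to 1.25 for Fosl2, -1.15 to 0.52 for Jun and -2.57 to 0.80 for Atf3. Signs also changed for Lif (-2.11 to 0.18), Gm37893 (-0.15 to 1.56), Large (-0.014 to 1.21), Gm37258 (-2.66 to 1.10), Abra (-2.29 to 0.84) and Gm37018 (-2.59 to 1.15). Depth limits Batf and Batf3, with 5 to 32 counts per library.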
